A study of Solanum lycopersicum with 4 samples.

Results

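Catalase, ascorbate peroxidase and copper/zinc superoxide dismutase transcripts were followed in tomato fruit pericarp through the genes cat1, CAT2, APX1, APX2 and SODCC.1. They were chosen by name: every probe set, a group of short oligonucleotides measuring 1 transcript, was taken whose platform annotation carries 1 of these symbols or a synonym. This gave 6 probe sets for the 5 genes, among 10101 probe sets in all and 803 named genes. APX2 has 2 probe sets and each of the others has 1. Pericarp of Solanum lycopersicum cv. Moneymaker was hybridized to 4 GeneChip Tomato Genome Arrays, 1 array for each genotype and stage. The genotypes were wild type and AtJUB1-OX, which expresses the Arabidopsis factor JUB1 fused to GFP (35S:AtJUB1-GFP) from the constitutive Cauliflower Mosaic Virus promoter. The stages were mature green (MG) and 7 days after breaker (B+7). The name AtJUB1-OX stands for a single transgenic line, OX2, of those generated, and how many fruits entered an array is not given in the sources used here.

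Superoxide dismutase turns superoxide into hydrogen peroxide and oxygen. Catalase, an enzyme of peroxisomes, splits hydrogen peroxide into water and oxygen and needs no electron donor. Ascorbate peroxidase reduces hydrogen peroxide with ascorbate, which dehydroascorbate and monodehydroascorbate reductases then restore. JUB1 is known from Arabidopsis as a NAC transcription factor that responds to hydrogen peroxide and lowers its level in the cell. Hydrogen peroxide also takes part in fruit ripening. The question here is whether the transcripts of these enzymes differed between the genotypes at either stage.

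Values are log2 signals, and a comparison is a difference of log2 signals. A call means a difference of at least 1.5-fold (0.58 on the log2 scale), the cut-off of the study. With 1 array per condition there is no replicate error, and no test was run. As the only measure of error, probe sets measuring one gene had a pooled SD of 0.16 for the genotype difference at MG and of 0.098 at B+7, over 35 genes of which more than 1 probe set lay above the median signal. For the change from MG to B+7 this SD reached 0.24 (wild type) and 0.26 (AtJUB1-OX). This spread holds no difference between fruits. All 6 probe sets lay above the median signal of all probe sets (9.70), and signals of different probe sets are not compared as transcript levels.

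On the ripening markers, the B+7 arrays resembled each other and the MG arrays did not. All 6 measured ripening genes on the list (PG2, Psy1, E8, EXP1, RIN and LOXB) were at least 1.5-fold higher at B+7 than at MG in both genotypes, and PG2, the fruit polygalacturonase, had signals of 3.98 and 6.32 at MG and of 14.16 and 14.23 at B+7. At MG, 5 of these 6 genes were lower in AtJUB1-OX, 4 of them past 1.5-fold, and PG2 was higher. These counts use the brightest probe set of each gene, and those of Psy1 disagreed. Its dimmest set, below the median signal, changed by 0.17 (wild type) and -0.39 (AtJUB1-OX) from MG to B+7. At MG the genotypes differed by -0.47 on its brightest set, and by -0.07 and 0.26 on the dimmer ones. The ethylene-responsive gene E8 had 12.23 in the wild type at MG, close to its 13.06 at B+7, against 6.95 in AtJUB1-OX (a difference of -5.29). EXP1, the ripening expansin gene, had 10.39 and 6.05 at MG (-4.34). The MG label thus covers arrays with unlike levels of ripening transcripts, and every change from MG to B+7 below rests on them. The summed signal of 6 photosynthesis genes was 14.21 in the wild type and 13.70 in AtJUB1-OX at MG. All 6 were lower in AtJUB1-OX at MG, 5 of them past 1.5-fold. At B+7 the sum was 12.56 in both, but it was mostly PSBO (12.03 in the wild type and 12.13 in AtJUB1-OX). The median genotype difference of the 6 genes at B+7 was -0.21. CAB6A was lower past 1.5-fold (-0.85), and PsbQ (-0.42), CAB5 (-0.30) and CAB4 (-0.12) were lower by less. PSBO (0.09) and LOC543978 (0.33) were higher. Among markers of other tissues, the pollen list had no measured gene. The seed list had 1, the dehydrin gene TAS14, with 8.38 in the wild type and 7.56 in AtJUB1-OX at MG, and with 10.87 and 5.80 at B+7, a difference of -5.07. Whether TAS14 marks seed in these fruits was not tested, so its signal is not read as seed content. The epidermis list had 3, with summed epidermal signals of 11.60 and 11.51 at MG and 6.47 and 6.57 at B+7. At MG this sum was mostly ltpg1, which differed between genotypes by -0.13, and TSW12 differed by 0.07. The dim LE16 was higher in AtJUB1-OX at MG (6.80 against 5.51), a difference of 1.29. From MG to B+7 ltpg1 and LE16 were lower in both genotypes, and TSW12 was higher by 0.48 (wild type) and 0.42 (AtJUB1-OX). For 4 control transcripts at MG, the 3' signal exceeded the 5' signal by 0.13 to 0.53 more in AtJUB1-OX. At B+7 the AtJUB1-OX array had higher signals of the ribosomal RNA controls, by 1.20 for 25S and 0.48 for 17S.

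**Figure D1:**
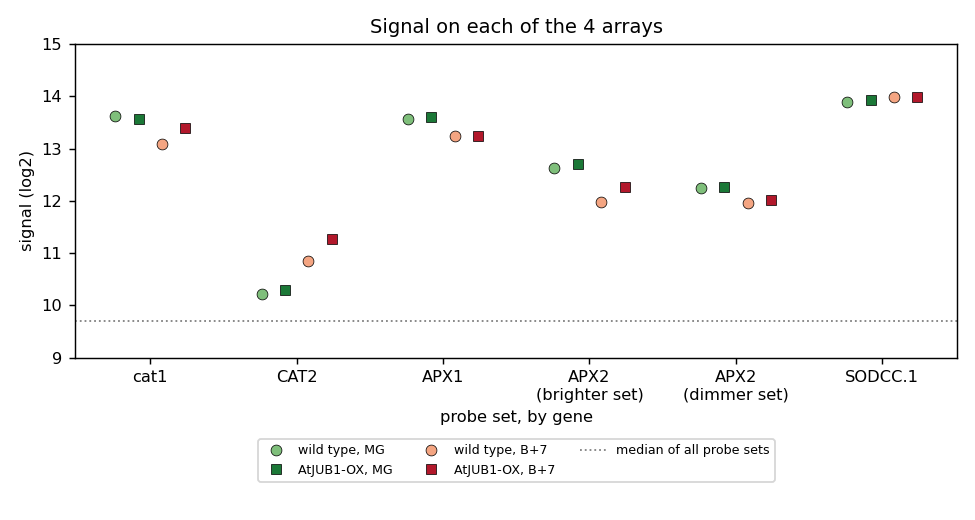
Log2 signal of the 6 probe sets on each of the 4 arrays, with circles for wild type and squares for AtJUB1-OX. Both catalase genes and the brighter APX2 probe set separate the genotypes at B+7, while the MG points of each probe set nearly coincide.

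The catalase gene cat1 had a log2 signal of 13.62 in the wild type and 13.57 in AtJUB1-OX at MG. At B+7 it had 13.08 in the wild type and 13.39 in AtJUB1-OX. The wild type B+7 array was thus the low one, and the other 3 lay above it. The genotypes differed by -0.05 at MG and by 0.31 at B+7, or 1.24-fold. From MG to B+7, the change of cat1 was -0.54 in the wild type, just inside the cut-off, and -0.18 in AtJUB1-OX. The B+7 signal was therefore 68.6% of the MG signal in the wild type and 88.5% in AtJUB1-OX.

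CAT2, the second catalase gene, went the other way between stages. Its signal was 10.21 in the wild type and 10.29 in AtJUB1-OX at MG. At B+7 it was 10.86 in the wild type and 11.27 in AtJUB1-OX, so both B+7 arrays lay above both MG arrays. From MG to B+7 its change was 0.65 in the wild type (1.57-fold) and 0.98 in AtJUB1-OX fruits (1.98-fold). It was the 1 gene of the 5 that passed 1.5-fold in both genotypes. Of all probe sets, 28.1% passed in the wild type and 36.0% in AtJUB1-OX. The share passing in both was not computed, so nothing is read from this count. For CAT2, AtJUB1-OX exceeded wild type by 0.08 at MG and by 0.41 at B+7, or 1.33-fold.

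The balance of the catalase transcripts can be followed within each array, since both genes are measured on it. From MG to B+7 the change of CAT2 exceeded that of cat1 by 1.19 in the wild type and by 1.16 in AtJUB1-OX, so that the ratio of CAT2 to cat1 signal moved 2.28-fold and 2.24-fold. Between genotypes this ratio differed by 0.13 at MG and 0.10 at B+7 on the log2 scale. Hence the shift between the 2 catalase genes had nearly the same size in both genotypes. What differed was the change from MG to B+7: AtJUB1-OX exceeded the wild type by 0.37 for cat1 and by 0.34 for CAT2. Whether these 2 offsets are linked was not tested. The pooled SD between probe sets for this difference of changes was 0.18. Over all probe sets the difference of changes had an upper quartile of 0.33 and an SD of 0.68. Among those above the median signal these were 0.24 and 0.52. The unlike MG arrays enter this difference (5.30 for E8 and 4.83 for EXP1), and their part in it was not tested. Neither gene has another probe set here on which its offset could be read again.

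The genotype differences of the catalase genes at B+7 exceeded the pooled SD of 0.098, but stayed inside 1.5-fold. None of the 5 genes passed the cut-off between genotypes at B+7, where 9.66% of all probe sets did so, or at MG, where 13.4% did. Among the 5050 probe sets above the median signal these shares were 4.81% at B+7 and 8.44% at MG. At B+7 the median difference was 0.00 with an SD of 0.43 over all probe sets, and -0.01 with 0.30 above the median signal. With APX2 read on its brighter probe set, all 5 members were at or above wild type there, with a median of 0.28 (range 0.00 to 0.41). This median is the value of APX2 itself, and it was 0.17 with the mean of both APX2 probe sets and 0.06 with the dimmer one. After loess normalization APX1 (-0.01) and SODCC.1 (-0.01) lay below wild type, leaving 3 of the 5 above it. At MG the members' median was 0.03 (range -0.05 to 0.08), beside -0.05 and an SD of 0.55 over all probe sets. Above the median signal these were -0.03 and 0.41. The AtJUB1-OX array at B+7 also had higher ribosomal RNA controls (1.20 and 0.48) and a lower TAS14 signal (-5.07). Their part in the catalase differences at B+7 was not tested.

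**Figure D2:**
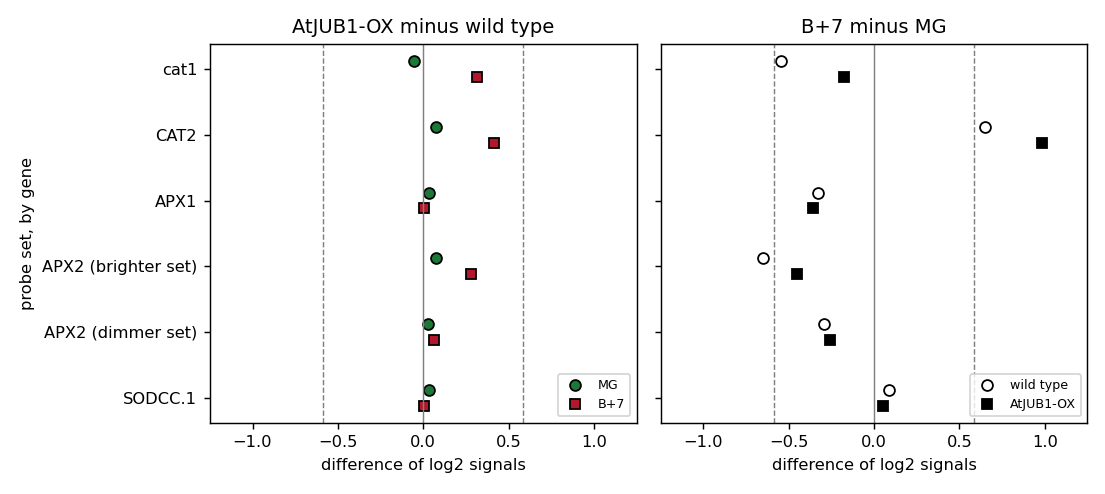
Differences of log2 signals for the 6 probe sets between genotypes (left, circles MG, squares B+7) and between stages (right, open circles wild type, filled squares AtJUB1-OX), with dashed lines at 1.5-fold. No probe set passes the lines on the left, and on the right CAT2 passes in both genotypes and the brighter APX2 probe set in the wild type.

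The ascorbate peroxidase genes APX1 and APX2 are neighbours on chromosome 6, with 0 annotated genes between them in the RefSeq annotation of assembly SLM_r2.1. In the array's naming, their probe sets also share 1 cluster number. Whether a probe set of one gene also binds transcripts of the other was not tested, so their separate values are uncertain.

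APX1 had signals of 13.56 in the wild type and 13.60 in AtJUB1-OX at MG, and of 13.23 and 13.24 at B+7. The genotypes differed by 0.03 at MG and by 0.00 at B+7. Between stages the change of APX1 was -0.33 in the wild type and -0.36 in AtJUB1-OX. Both B+7 arrays thus lay below both MG arrays, with the genotypes side by side at each stage.

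The brighter APX2 probe set, named with the suffix for probes common to several transcripts of a gene, had 12.63 in the wild type and 12.71 in AtJUB1-OX at MG. At B+7 it had 11.98 and 12.26. The dimmer probe set had 12.24 and 12.27 at MG, and 11.95 and 12.01 at B+7. Both probe sets were lower at B+7 than at MG in both genotypes, but by unequal amounts. The brighter one differed by -0.65 in the wild type (63.7% of the MG signal) and -0.45 in AtJUB1-OX, and the dimmer one by -0.29 and -0.26. Only the brighter set in the wild type passed 1.5-fold, and the mean of both sets did not (-0.47). The genotype difference at B+7 was 0.28 on the brighter and 0.06 on the dimmer probe set, so the offset seen on the brighter set does not recur at that size on the other.

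SODCC.1, a copper/zinc superoxide dismutase gene, showed the smallest range of the 5 genes. Its signals at MG were 13.90 in the wild type and 13.93 in AtJUB1-OX, and at B+7 they were 13.98 in both. The genotype differences were 0.03 and 0.00, and the changes from MG to B+7 were 0.09 in the wild type and 0.05 in AtJUB1-OX. All 4 values lay close under the highest signals of the arrays, which were 14.33 to 14.42.

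Bright probe sets spread little on these arrays, which bears on cat1, APX1 and SODCC.1, the 3 members with a mean signal of at least 13. Of 344 probe sets as bright, 0.872% passed 1.5-fold between genotypes at MG and 0.291% at B+7. Between stages 4.65% passed in the wild type and 6.69% in AtJUB1-OX. The SD of the difference among them was 0.13 at B+7 and 0.16 at MG. Whether the array's upper range compresses changes of such probe sets was not tested. The cat1 offset of 0.31 at B+7 arose in that narrow range, whereas CAT2 lay in the middle of the signal range.

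**Figure D3:**
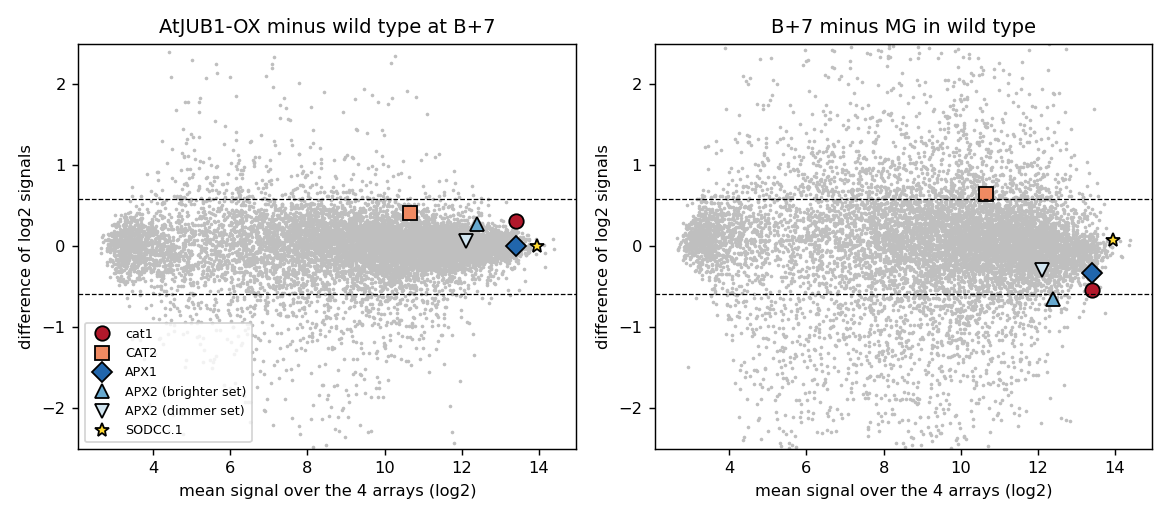
Difference of log2 signals against mean log2 signal over the 4 arrays for all probe sets (grey) and the 6 member probe sets (symbols), for AtJUB1-OX minus wild type at B+7 (left) and B+7 minus MG in the wild type (right), with dashed lines at 1.5-fold. Grey points beyond 2.5 are not drawn (25 on the left, 325 on the right), and the grey cloud narrows toward the right, where cat1, APX1 and SODCC.1 lie.

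Across ripening, the members did not move as a group. In wild type CAT2 passed 1.5-fold upward and APX2 downward, and in AtJUB1-OX only CAT2 passed. All probe sets passed the cut-off in either direction in 28.1% of cases in the wild type and 36.0% in AtJUB1-OX, and those above the median signal in 21.0% and 25.9%. A share of 2 or 1 of 5 genes is thus near this background. The members' median change was -0.33 in the wild type and -0.18 in AtJUB1-OX, beside 0.04 and 0.09 over all probe sets. Probe sets of the GAPDH control also had lower signals at B+7, with changes of -0.27 to -0.15 in the wild type and from -0.31 to -0.21 in AtJUB1-OX, and the bacterial spike controls were higher by medians of 0.21 and 0.19. From MG to B+7 the excess of 3' over 5' signal changed by -0.46 (wild type) and -0.95 (AtJUB1-OX) for the EF1a control, and by -0.25 and -0.55 for ubiquitin. The 25S ribosomal RNA control was higher at B+7 by 0.44 and 1.76, and the 17S control by 0.84 and 1.39. The summed photosynthesis signal was lower at B+7 as well (14.21 to 12.56 in the wild type, 13.70 to 12.56 in AtJUB1-OX). The part of these controls and markers in the decreases of cat1, APX1 and APX2 was not tested. In such bulk pericarp, fewer cells of a type and less RNA per cell cannot be told apart.

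Other enzymes of the same defence were taken from a list of symbols, of which 7 genes were measured. None passed 1.5-fold between genotypes at either stage. Their median genotype difference was -0.01 at MG and 0.06 at B+7. The plastid copper/zinc superoxide dismutase gene SODCP.2 had 11.66 in the wild type and 11.18 in AtJUB1-OX at MG, a difference of -0.48, and 11.60 and 11.61 at B+7. For FESOD, the iron superoxide dismutase gene, the 2 probe sets disagreed at MG, with -0.31 on the brighter and 0.32 on the other. At B+7 the superoxide dismutase genes differed between genotypes by 0.00 (SODCC.1), 0.00 (SODCP.2) and 0.09 (FESOD, 0.16 on its other probe set). In the change from MG to B+7, however, AtJUB1-OX exceeded the wild type by 0.48 for SODCP.2, by 0.41 for FESOD (-0.16 on its other probe set) and by 0.37 for the dehydroascorbate reductase gene DHAR2. DHAR1 (-0.22), GPXle-1 (-0.18) and MDHAR (-0.10) went the other way, and GPXle-2 gave 0.13. By this measure alone, an offset of the size seen for cat1 and CAT2 also occurred in some other genes of the list. The values behind it were unlike: SODCP.2 and FESOD differed between genotypes mostly at MG (-0.48 and -0.31). DHAR2 differed by -0.16 at MG and 0.21 at B+7, whereas at B+7 cat1 differed by 0.31 and CAT2 by 0.41.

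Between stages, 1 of these 7 genes was higher and 1 lower past 1.5-fold in each genotype, a share of 28.6% that lies near the 28.1% of all probe sets in the wild type and under the 36.0% in AtJUB1-OX. DHAR1, a dehydroascorbate reductase gene, had 12.70 (wild type) and 12.73 (AtJUB1-OX) at MG, and 12.02 and 11.83 at B+7. Its changes were thus -0.68 and -0.89, and its dimmer probe set gave -0.93 and -1.23. GPXle-1, a glutathione peroxidase gene, was higher at B+7 by 0.97 in the wild type and 0.79 in AtJUB1-OX. The second gene of either kind differed less: DHAR2 by 0.07 and 0.45, and GPXle-2 by -0.17 and -0.04. MDHAR, the monodehydroascorbate reductase gene, changed by 0.22 and 0.12 with a signal below the median of all probe sets.

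Among 4 genes of ascorbate and glutathione synthesis, GSH1, the glutamate-cysteine ligase gene that opens glutathione synthesis, had higher signals at B+7, by 1.89 in the wild type and 1.68 in AtJUB1-OX fruits. GMP, whose enzyme makes GDP-mannose for ascorbate synthesis, changed by -1.10 and -2.16. It was also the 1 gene of this list past 1.5-fold between genotypes, with B+7 signals of 10.52 (wild type) and 9.69 (AtJUB1-OX), a difference of -0.83 that was -0.36 on its dimmer probe set. GLDH and GSH2 stayed inside 1.5-fold in all 4 comparisons. Of all probe sets, 13.4% passed 1.5-fold between genotypes at MG and 9.66% at B+7. Between stages 28.1% passed in the wild type and 36.0% in AtJUB1-OX. With 4 genes, nothing is read from these counts.

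Of 3 genes listed as sources of hydrogen peroxide, 2 encode NADPH oxidases, which form superoxide at the plasma membrane. At MG Wfi1 had 11.75 (wild type) and 11.97 (AtJUB1-OX), and at B+7 it had 11.18 and 10.43, a difference of -0.75. RBOH1 differed by -0.99 at MG, with dim signals of 5.80 in the wild type and 4.81 in AtJUB1-OX. AOX1a, the remaining member, encodes the mitochondrial alternative oxidase, which is not itself a source of hydrogen peroxide. Its genotype difference was -0.51 at MG and 0.23 at B+7, and its change from MG to B+7 was 0.23 in the wild type and 0.97 in AtJUB1-OX. Between genotypes, 9.66% of all probe sets passed 1.5-fold at B+7 and 13.4% at MG. The brighter NADPH oxidase gene, Wfi1, was thus lower in AtJUB1-OX at B+7, while the signals of both catalase genes were higher there by less than 1.5-fold. A link between these differences was not tested.

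**Figure D4:**
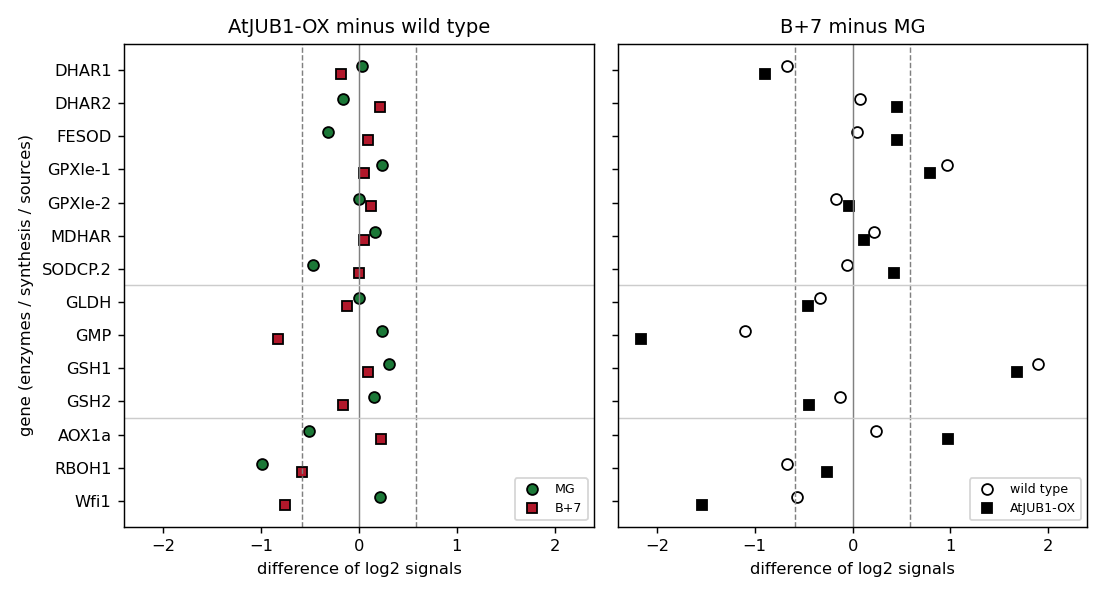
Differences of log2 signals for the brightest probe set of 14 listed genes, between genotypes (left, circles MG, squares B+7) and between stages (right, open circles wild type, filled squares AtJUB1-OX), in the order of other enzymes, synthesis genes and listed sources. GMP and Wfi1 lie beyond the dashed 1.5-fold line at B+7 on the left, and GSH1, GMP, DHAR1 and GPXle-1 lie beyond it in both genotypes on the right.

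The genes whose profile was most like that of each member were sought among 358 named genes above the median signal, by the Euclidean distance of the 4 mean-centred log2 signals. With 4 arrays such likeness is a description only. For cat1 they were SPM1 (distance 0.076), PCNA (0.15) and GABA-TP3 (0.15), and GABA-TP3 differed between genotypes by 0.00 at MG and 0.52 at B+7. For CAT2 they were HY5 (0.19), ctu1 (0.23) and SAHH (0.23), of which SAHH differed between genotypes by 0.38 at MG and 0.37 at B+7, unlike CAT2. For APX1 they were MT4 (0.046), DXR (0.064) and PCNA (0.088). For APX2 they were FRK2 (0.14), ARG1 (0.15) and UBC27 (0.15). For SODCC.1 they were DHS (0.038), ETR1 (0.042) and FDH (0.052). No member was compared with another member in this search.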

How the data were processed

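The deposited values are log2 signals of probe sets, which the authors had background-corrected, normalized and summarized with tools given as GCRMA and RMA. These names come from the submitters' processing notes, with roles and versions not given in the sources used here. Control probe sets (108) were left out. Groups came from the sample labels. The growth protocol in the labels speaks of Arabidopsis seedlings, whereas organism, variety and tissue there and the study's methods give tomato fruit, which was followed here. Probe sets were named by the 2007 platform annotation (909 probe sets with 1 symbol, 885 matched to RefSeq assembly SLM_r2.1, used for names, chromosome and neighbours). For a gene with several probe sets, the brightest by mean signal was used. The members and lists were chosen with earlier results of these data known. Lists were matched by symbol or synonym only, since no product names were given, and the named genes are the members, their 3 nearest profiles each, and listed genes past 1.5-fold or at a list's extremes. Other genes named (SODCP.2, FESOD, DHAR2, GPXle-2, MDHAR, GLDH, GSH2) were named after their values were seen, to account for whole lists. Alternatives were median centring of the arrays, quantile normalization, loess with a span of 0.3, the mean of a gene's probe sets, a floor at the 25th percentile (7.34), a 2-fold cut-off, the probe sets above the median signal and Pearson's correlation for the profiles. The look at probe sets with a signal of at least 13, the within-array balances and the median with the dimmer APX2 probe set were added after the data were seen. Simulated data of 10101 probe sets served to check the count for the MG comparison, and 200 of 200 probe sets changed 2-fold were recovered. The simulated noise was set well below the observed spread of all probe sets. The recovery thus checks the counting only and does not measure sensitivity in these data. Computations ran in Python 3.11.15 (pandas 2.3.3, numpy 2.4.6) and R 4.3.3 (limma 3.58.1). The number of arrays limits the precision.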

Additional observations from a re-analysis of the deposited data

Results flagged for a closer look

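For cat1 the genotype difference had opposite signs at the 2 stages, -0.05 at MG and 0.31 at B+7, which differ by 0.37. This difference was not tested, since each stage has 1 array per genotype, and the MG value is smaller than the pooled SD between probe sets (0.16).

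The metallothionein gene MT2 was lower in AtJUB1-OX at MG (-1.58) and higher at B+7 (0.95), and from MG to B+7 it changed by -1.21 (wild type) and 1.33 (AtJUB1-OX). Both views give the same difference of 2.53, which was not tested. MT2 is dim, with signals of 6.20 to 7.79.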

How the results depend on the processing

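For the 25 member differences (5 genes in the 4 comparisons and in the difference of changes), each under 5 alternatives, 45 of 125 values could not move by construction (the floor lies below all members, and 4 genes have 1 probe set). Of the other 80, 79 kept their side of the 1.5-fold cut-off and moved by less than the SD between probe sets. That SD was pooled over all 82 genes with several probe sets. It was 0.26 between genotypes at either stage, 0.61 (wild type) and 0.74 (AtJUB1-OX) between stages, and 0.34 for the difference of changes. It is wider than the SD above the median signal given earlier. Against that SD of 0.098 at B+7, APX2 moved by more with the mean of its probe sets (0.28 to 0.17). Shifts ran from -0.09 to 0.08 with loess, from -0.05 to 0.04 with quantile normalization and from -0.02 to 0.04 with centring. With the mean of a gene's probe sets they ran from -0.11 to 0.18. The exception was APX2 from MG to B+7 in wild type, which with the mean of its probe sets fell inside the cut-off (-0.47), leaving 1 gene past 1.5-fold there. At a 2-fold cut-off 0 genes passed between stages in wild type and 0 in AtJUB1-OX. By Pearson's correlation 0 of the 3 nearest genes were shared for cat1, CAT2, APX2 and SODCC.1, and 1 (MT4) for APX1. Leaving out an array was not possible with 1 per condition, and the arrays give no error between fruits.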

Other observations

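CCS, by its symbol the copper chaperone of superoxide dismutase, had signals of 11.99 in the wild type and 11.75 in AtJUB1-OX at MG, and of 12.61 and 12.62 at B+7. It was thus higher at B+7 by 0.62 in the wild type and 0.86 in AtJUB1-OX, while SODCC.1 changed by 0.09 and 0.05. Of 6 genes listed as metal chaperones and metallothioneins, CCS and MT2 were past 1.5-fold in at least 1 comparison. Over all probe sets, the share past 1.5-fold in a single comparison ran from 9.66% to 36.0%. The share passing in at least 1 comparison was not computed, so nothing is read from this count. MTA came close, at -0.48 in the wild type and -0.57 in AtJUB1-OX from MG to B+7, and LEMT1 and CCH differed by at most 0.20 in the 4 comparisons. FER, which the list also matched by symbol, encodes a regulator of iron uptake in roots and lay near the lowest signals, between 2.97 and 3.35.

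Among 3 genes matched to the list of class III peroxidases, TPx1 had genotype differences of 0.09 and 0.02, and TPX2 was near the lowest signals. CEVI-1 had signals of 4.20 in the wild type and 3.30 in AtJUB1-OX at MG, and of 6.24 and 3.96 at B+7. Those at MG and that of AtJUB1-OX at B+7 are too near the lowest signals of the arrays (2.52 to 2.62) for a fold change to be given. Whether TPx1 belongs to this class was not checked.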
